A study of Mus musculus with 6 samples.

Results

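The plasminogen activator system was examined through 6 genes: the activators *Plau* and *Plat*, the urokinase receptor *Plaur*, the inhibitors *Serpinb2* and *Serpine2*, and the clearance receptor *Lrp1*. They were found among the 26579 genes of the count table by matching Ensembl identifiers to GENCODE release M21 on GRCm38, and all 6 were present. The libraries were made from whole dorsal neck skin of female mice at 33 days of age, 3 wildtype and 3 YAP2-5SA-∆C littermates. YAP2-5SA-∆C mice carry a transgene for a mildly activated YAP protein that is expressed in basal keratinocytes of the epidermis and are also called transgenic here, whereas the wildtype mice carry none. The background strain is not given in the sources used here. The RNA came from all layers of the skin, so a transcript cannot be assigned to keratinocytes, and fewer cells of a type cannot be told apart from less RNA per cell.

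Plasmin is a broad protease that dissolves fibrin and breaks down extracellular matrix. It is cut from plasminogen by urokinase, the product of *Plau*, which acts at the cell surface on its receptor PLAUR, or by tissue plasminogen activator, the product of *Plat*, which acts mainly on fibrin. Serpins trap both activators, and LRP1 takes the resulting complexes into the cell. In skin, this system is known for its part in wound closure and keratinocyte migration.

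Total counts per library ranged from 11225705 to 19505036. Markers of basal and suprabasal keratinocytes and of fibroblasts were abundant in each library, while *Flg* was not matched in the table. *Yap1* itself had 131 ± 9.47 CPM (reads of a gene scaled to library size; SD, n = 3) in wildtype and 136 ± 7.32 CPM in transgenic skin, and the sources used here do not say whether transgene reads were counted on it. Transgenic replicate 2 stood apart. Its summed hair shaft and inner root sheath keratins and trichohyalin were at 1461 CPM, against 7005 and 8807 CPM in the other transgenic libraries and 13078 to 15998 CPM in wildtype. Wildtype replicate 1 had 1023 CPM of skeletal muscle markers, against 4451 and 5478 CPM in the other wildtype libraries and 919 to 2617 CPM in transgenic skin.

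Of the 6 genes, 4 separated the genotypes completely. *Plau*, *Plaur* and *Serpinb2* were higher in every transgenic library than in every wildtype library, and *Plat* was lower in every one. Among all 15102 tested genes, 15.5% separated with transgenic skin higher and 18.2% with transgenic skin lower. None of the 6 passed an FDR of 0.05 under the quasi-likelihood model of edgeR (0 of 6), which 1.91% of all tested genes did. At an unadjusted p under 0.05, the same test gave 3 higher and 1 lower, where 13.3% of all tested genes were higher and 13% were lower. Voom called 0 of the 6 and 1.65% of all genes. The likelihood-ratio test of edgeR called *Plaur* and *Serpinb2*, and 10.4% of all genes. DESeq2's Wald test called *Plau* and *Serpinb2*, and 10.7% of the genes to which it gave an adjusted p. The median log2 fold change was 0.33 over the 6 genes and -0.01 over all tested genes.

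**Figure D1:**
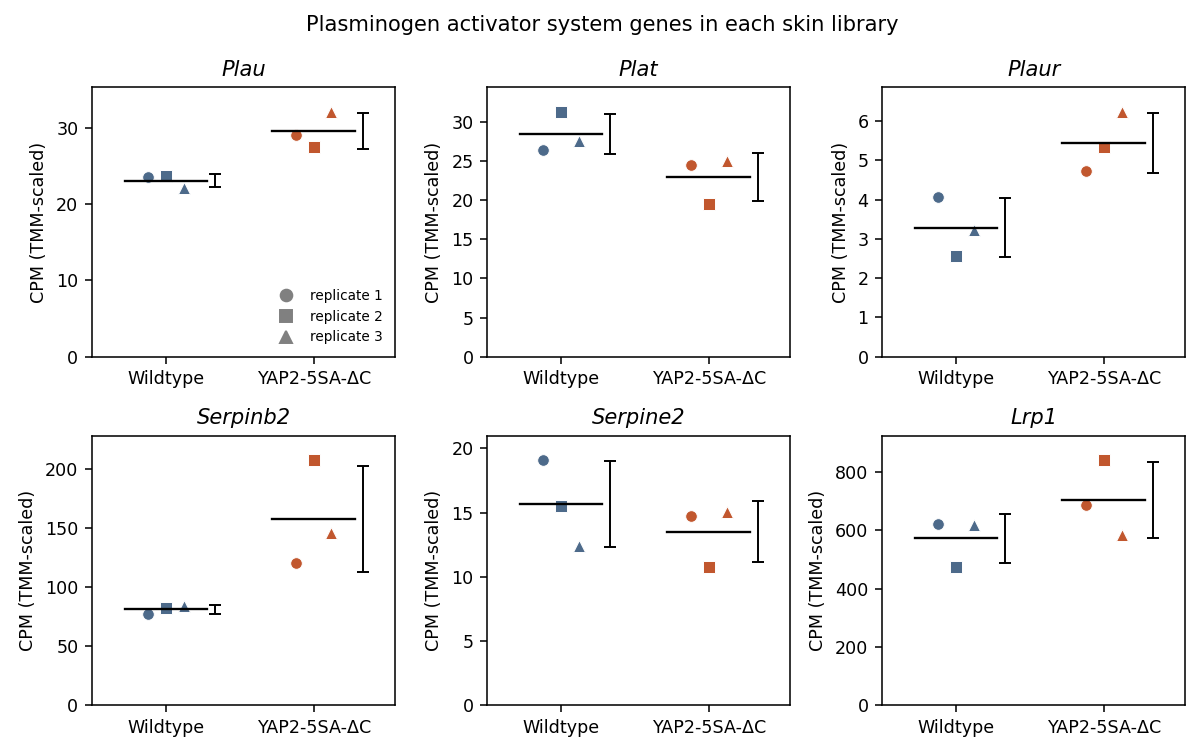
Expression of the 6 genes in each library, in CPM after TMM scaling on axes that start at 0; symbols mark the replicate number, lines the mean and bars the SD of 3 mice. *Plau*, *Plaur* and *Serpinb2* do not overlap between genotypes and are higher in YAP2-5SA-∆C skin, *Plat* does not overlap and is lower, and *Serpine2* and *Lrp1* overlap.

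RefSeq promoter windows on GRCm38.p6 were given for 4 of the 6 genes (*Plaur*, *Serpinb2*, *Serpine2* and *Lrp1*) and were searched on both strands for TGANTCA, the core of the element bound by AP-1, and for CATTCC, the core of the element bound by TEAD factors. The following stretches of 30 bases hold the only matches, printed from the forward strand with the match in capitals. TGANTCA reads the same on both strands, so these matches have no orientation.
Plaur promoter, chr7:24462403-24462432: acccctggagcTGACTCActctttagcaaa
Serpinb2 promoter, chr1:107511318-107511347: gagtaaaatgtTGAATCAtacaaagaatac
The match in *Plaur* starts 69 bases before the transcription start, and that in *Serpinb2* 94 bases before the nearer of 2 starts. TGANTCA occurs in 7.79% of all 32544 promoter windows of the same length. The narrower word TGACTCA, which is found in 5.19% of them, matches *Plaur* alone of the 4 genes. CATTCC occurs in 14.6% of all windows and in none of these 4. These matches describe letters, and nothing on binding was measured.

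*Plau* (ENSMUSG00000021822, chromosome 14 of GRCm38 from 20836660 to 20843385, forward strand) was at 23.5, 23.7 and 22.2 CPM in wildtype replicates 1, 2 and 3. In the transgenic replicates it was at 29.1, 27.5 and 32.1 CPM. The coefficient of variation was 3.57% in wildtype and 7.92% in transgenic skin, where counting error alone gives 4.37% to 6.55%, and the lowest transgenic library was above the highest of them. The fold change was 1.28 (95% interval 1.12 to 1.46; quasi-likelihood FDR of edgeR 0.0621). *Plau* passed the threshold without transgenic replicate 2 (FDR 0.0387), and dropping any single other library gave an FDR of 0.0945 to 0.196. Summed basal keratinocyte markers were at 3593 to 4358 CPM in wildtype and 5903 to 7540 CPM in transgenic libraries. Of these 7 markers, 1 passed the FDR threshold. *Krt5*, *Krt14*, *Itga6* and *Col17a1* did not overlap between genotypes, while *Krt15*, *Itgb4* and *Trp63* did. The sum was highest in transgenic replicate 2, the transgenic library with the least *Plau*. Macrophage markers, of which 3 of 8 passed, were at 442 to 518 CPM in wildtype and 682 to 736 CPM in transgenic libraries. Hyperplastic keratinocyte markers, of which 3 of 6 passed, overlapped in their sum. The part of these lists in the *Plau* difference was not tested.

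*Plat* (ENSMUSG00000031538, chromosome 8 from 22757727 to 22782844, forward strand) went the other way. Its wildtype values were 26.4, 31.3 and 27.6 CPM, and its transgenic values were 24.5, 19.5 and 25.0 CPM. The genotypes did not overlap, but the gap between the nearest libraries was small beside the SD of 2.56 CPM in wildtype and 3.06 CPM in transgenic skin. The fold change was 0.81 (95% interval 0.67 to 0.98; edgeR quasi-likelihood FDR 0.160). Without transgenic replicate 2, the lowest library, the log2 fold change was -0.18 in place of -0.31. Summed melanocyte markers were at 408 to 478 CPM in wildtype and 151 to 261 CPM in transgenic libraries, with 2 of 5 past the FDR threshold, both lower, and they were also lowest in transgenic replicate 2, as were the hair shaft and inner root sheath markers, of which 0 of 9 passed. Summed endothelial markers went the other way, at 116 to 131 CPM in wildtype and 135 to 161 CPM in transgenic libraries. Of these 6 markers, 0 passed. The part of these lists in the *Plat* difference was not tested.

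Both activators were present in similar numbers of reads, and the merged annotated exons of *Plat* are longer (6241 against 2367 bases). Counted per kilobase of exon within a library, the ratio of *Plau* to *Plat* was 2.35, 1.99 and 2.12 in the wildtype replicates and 3.13, 3.73 and 3.39 in the transgenic replicates. Every transgenic library had a higher ratio than every wildtype library. The mean log2 ratio corresponds to a 1.59-fold higher ratio in transgenic skin (exact permutation, two-sided, p = 0.1, and 0.167 when adjusted over the 5 ratios computed). With 3 mice against 3, no smaller p can be reached. This ratio does not depend on the scaling between libraries, and its log2 difference was between 0.60 and 0.73 when single libraries were dropped.

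*Plaur* (ENSMUSG00000046223, chromosome 7 from 24462484 to 24475968, forward strand) encodes the lipid-anchored receptor that holds urokinase at the cell surface. It had the fewest reads of the 6 genes, with 74, 49 and 34 counts in wildtype and 85, 91 and 100 counts in transgenic skin. These are 4.07, 2.56 and 3.23 CPM against 4.73, 5.35 and 6.24 CPM. The genotypes did not overlap, and the highest wildtype library was within 1 SD (0.760 CPM) of the lowest transgenic library. Counting error alone gives a coefficient of variation of 17.1% at the lowest and 10% at the highest of these counts, against 22.9% observed in wildtype and 14.0% in transgenic skin. The fold change was 1.65 (95% interval 1.18 to 2.30; edgeR quasi-likelihood FDR 0.0856), and edgeR's likelihood-ratio FDR was 0.0174.

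The receptor transcript was also set against that of its ligand. The ratio of *Plaur* to *Plau* per kilobase was 0.156, 0.0981 and 0.132 in wildtype and 0.147, 0.176 and 0.176 in transgenic libraries, and the groups overlapped. The log2 difference of 0.39 had p = 0.2 by exact permutation (two-sided; 0.25 after adjustment over the 5 ratios). It was 0.20 without wildtype replicate 2 and 0.54 without wildtype replicate 1.

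*Serpinb2* (ENSMUSG00000062345, chromosome 1 from 107511423 to 107535478, forward strand) had the largest fold change of the 6 genes with all libraries, though not without transgenic replicate 2, where the log2 fold change was 0.73 for *Serpinb2* and 0.75 for *Plaur*. It encodes plasminogen activator inhibitor 2, a serpin that inhibits urokinase and is largely kept inside keratinocytes and macrophages. Its wildtype values were 77.2, 82.1 and 84.2 CPM, whereas its transgenic values were 120, 207 and 146 CPM. The wildtype libraries were within a narrow band, and the transgenic libraries were spread widely above it, with an SD of 44.8 CPM against 3.60 CPM. The fold change was 1.95 (95% interval 1.44 to 2.63).

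For *Serpinb2* the FDR was 0.0516 with the quasi-likelihood model of edgeR and 0.0582 with voom, just above the threshold, while edgeR's likelihood-ratio FDR was 0.000123. The highest library was transgenic replicate 2. In this library, the summed suprabasal keratinocyte markers were also highest, at 10393 CPM against 5712 and 6299 CPM in the other transgenic libraries and 4277 to 5203 CPM in wildtype. The basal keratinocyte, fibroblast and mast cell sums were highest in it too. Of the 7 suprabasal markers, 6 were tested and 0 passed the FDR threshold. Of 6 hyperplastic keratinocyte markers, 3 passed it, all higher, and their sum was at 1218 to 1622 CPM in wildtype and 1332 to 2501 CPM in transgenic libraries, lowest of the latter in replicate 2. *Krt17* made up most of the wildtype sum and was lower in each transgenic library, at 962 to 1213 CPM in wildtype and 475 to 870 CPM in transgenic skin (edgeR quasi-likelihood FDR 0.128). Macrophage markers, of which 3 of 8 passed, were at 442 to 518 and 682 to 736 CPM. The part of these lists in the *Serpinb2* difference was not tested. Without transgenic replicate 2, the log2 fold change was 0.73 in place of 0.96 and the FDR was 0.0140. Dropping transgenic replicate 1 left it just above 0.05, and dropping any single wildtype library or transgenic replicate 3 gave 0.0908 to 0.190. *Serpinb2* shares 291 exonic bases with the neighbouring *Serpinb10*, which had 101 counts over the 6 libraries.

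The ratio of *Plau* to *Serpinb2* per kilobase was 0.303, 0.286 and 0.261 in wildtype and 0.240, 0.132 and 0.218 in transgenic libraries. All transgenic values were lower. The log2 difference was -0.57 (exact permutation, two-sided, p = 0.1, adjusted 0.167). Leaving out transgenic replicate 2 brought it to -0.30, and leaving out transgenic replicate 1 to -0.74.

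*Serpine2* (ENSMUSG00000026249, chromosome 1 from 79794197 to 79861180, reverse strand) encodes protease nexin 1, a secreted inhibitor of thrombin, urokinase and tissue plasminogen activator. It was at 19.1, 15.5 and 12.4 CPM in wildtype and at 14.7, 10.8 and 15.0 CPM in transgenic skin. The genotypes overlapped, and the fold change of 0.86 (95% interval 0.63 to 1.18) was within the spread of the replicates (FDR 0.502, edgeR quasi-likelihood). The log2 fold change of -0.22 was -0.05 without wildtype replicate 1, -0.06 without transgenic replicate 2 and -0.35 without wildtype replicate 3. *Serpine2* is also expressed in the dermal papilla of the hair follicle, and the summed markers of that structure were at 82.1 to 109 CPM in wildtype and 64.5 to 87.9 CPM in transgenic libraries, with 0 of 7 past the FDR threshold. Their part in the *Serpine2* values was not tested.

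The ratio of *Plau* to *Serpine2* per kilobase was 4.32, 5.33 and 6.27 in wildtype and 6.91, 8.95 and 7.48 in transgenic libraries. The groups did not overlap, which also held for *Plau* itself but not for *Serpine2*. The ratio was 1.47-fold higher in transgenic skin (exact permutation, two-sided, p = 0.1, adjusted 0.167). Its log2 difference of 0.56 was between 0.42 and 0.69 when single libraries were dropped.

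*Lrp1* (ENSMUSG00000040249, chromosome 10 from 127538161 to 127621148, reverse strand) was by far the most abundant in reads. Its values were 623, 474 and 619 CPM in wildtype and 687, 839 and 582 CPM in transgenic skin. The groups overlapped, since transgenic replicate 3 was below wildtype replicates 1 and 3. The fold change was 1.23 (95% interval 0.94 to 1.60; edgeR quasi-likelihood FDR 0.284). Counting error was at most 1.24% here, so depth does not limit this comparison, whereas the replicates varied by 14.8% and 18.4%. In place of 0.30, the log2 fold change was 0.17 without transgenic replicate 2, 0.18 without wildtype replicate 2 and 0.42 without transgenic replicate 3. *Lrp1* is a fibroblast-rich transcript in many tissues, and the summed fibroblast markers were likewise lowest in wildtype replicate 2 (9642 CPM) and highest in transgenic replicate 2 (16157 CPM). The sums of basal and suprabasal keratinocyte markers were also lowest and highest in these libraries. The part of these lists in the *Lrp1* values was not tested. The ratio of *Lrp1* to *Plau* per kilobase was 3.31 ± 0.561 in wildtype and 3.22 ± 0.829 in transgenic libraries (SD, n = 3 each), and the groups overlapped (exact permutation, two-sided, p = 0.8).

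**Figure D2:**
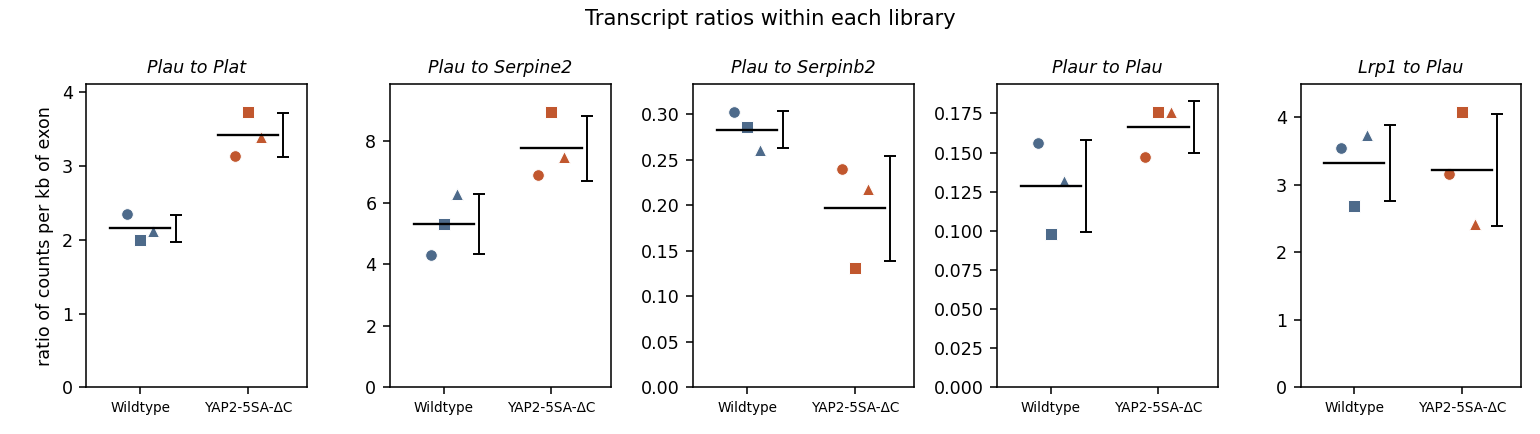
Ratios of counts per kilobase of exon between 2 genes in the same library, on axes that start at 0; symbols mark the replicate number, lines the mean and bars the SD of 3 mice. The ratios of *Plau* to *Plat* and of *Plau* to *Serpine2* are higher in each YAP2-5SA-∆C library than in each wildtype library, that of *Plau* to *Serpinb2* is lower, and the ratios with *Plaur* and *Lrp1* overlap.

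Levels of different genes were compared only per kilobase of annotated exon, with all exons of a gene merged. Merging lowers the value of a gene with long, rarely used exons. On this scale, in CPM per kilobase, wildtype skin had 34.6 ± 1.53 of *Serpinb2*, 32.3 ± 4.79 of *Lrp1*, 9.77 ± 0.348 of *Plau*, 4.55 ± 0.410 of *Plat*, 1.89 ± 0.405 of *Serpine2* and 1.26 ± 0.288 of *Plaur* (SD, n = 3 each). *Serpinb2* and *Lrp1* overlapped between libraries, as did *Serpine2* and *Plaur*, and the other neighbours in the order did not. In transgenic skin, *Serpinb2* was at 67.2 ± 19.1 and *Lrp1* at 39.7 ± 7.31 CPM per kilobase, without overlap. *Plau* followed at 12.5 ± 0.990 and *Plat* at 3.68 ± 0.490. *Plaur* at 2.08 ± 0.291 and *Serpine2* at 1.63 ± 0.288 came last in reversed order, and their libraries still overlapped.

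The wider pathway was read from 45 partner genes, of which 31 had enough counts to be tested. With edgeR's quasi-likelihood model 1 rose and 1 fell at an FDR of 0.05, or 6.45% of those tested against 1.91% of all genes. At an unadjusted p under 0.05, 10 (32.3%) were higher and 3 (9.68%) were lower, against 13.3% and 13% of all genes, and the median log2 fold change was 0.11. The gene that fell was *St14*, which encodes matriptase, a membrane protease of keratinocytes that can activate pro-urokinase. It was at 119, 130 and 122 CPM in wildtype and 91.2, 75.3 and 92.6 CPM in transgenic skin. All transgenic values were lower, with a log2 fold change of -0.52 (SE 0.09; edgeR quasi-likelihood FDR 0.0451). *St14* no longer passed when any library other than transgenic replicate 2 was left out, with FDRs of 0.0709 to 0.186. The summed hair shaft and inner root sheath markers put the 6 libraries in the same order as *St14*, with 0 of 9 past the threshold. Basal and suprabasal keratinocyte sums were higher in each transgenic library than in each wildtype library. The part of these lists in the *St14* difference was not tested.

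The gene that rose was *Itgb2*, the beta subunit of leukocyte integrins, which pairs with the product of *Itgam* to bind the urokinase receptor on myeloid cells. *Itgb2* was at 13, 14.1 and 13.4 CPM in wildtype and 20.8, 21.0 and 21.4 CPM in transgenic skin, so that the replicates differed far less than the genotypes. Its log2 fold change was 0.64 (SE 0.07; edgeR quasi-likelihood FDR 0.0300). It did not pass without wildtype replicate 2, wildtype replicate 3, transgenic replicate 1 or transgenic replicate 3, where the FDR was 0.0509 to 0.163. *Itgam*, picked after its value was seen, had a log2 fold change of 0.63 (FDR 0.0588, edgeR). Summed macrophage markers were at 442 to 518 CPM in wildtype and 682 to 736 CPM in transgenic libraries, with 3 of 8 past the threshold, all higher, and *Itgam* is itself among the 8. Of 6 neutrophil markers only *Csf3r* and *Cxcr2* had enough counts to be tested, and *Cxcr2* rose. The neutrophil sum was at 8.80 to 12.9 CPM in wildtype and 20.8 to 29.5 CPM in transgenic libraries, without overlap. The part of both lists in the *Itgb2* and *Plaur* values was not tested.

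**Figure D3:**
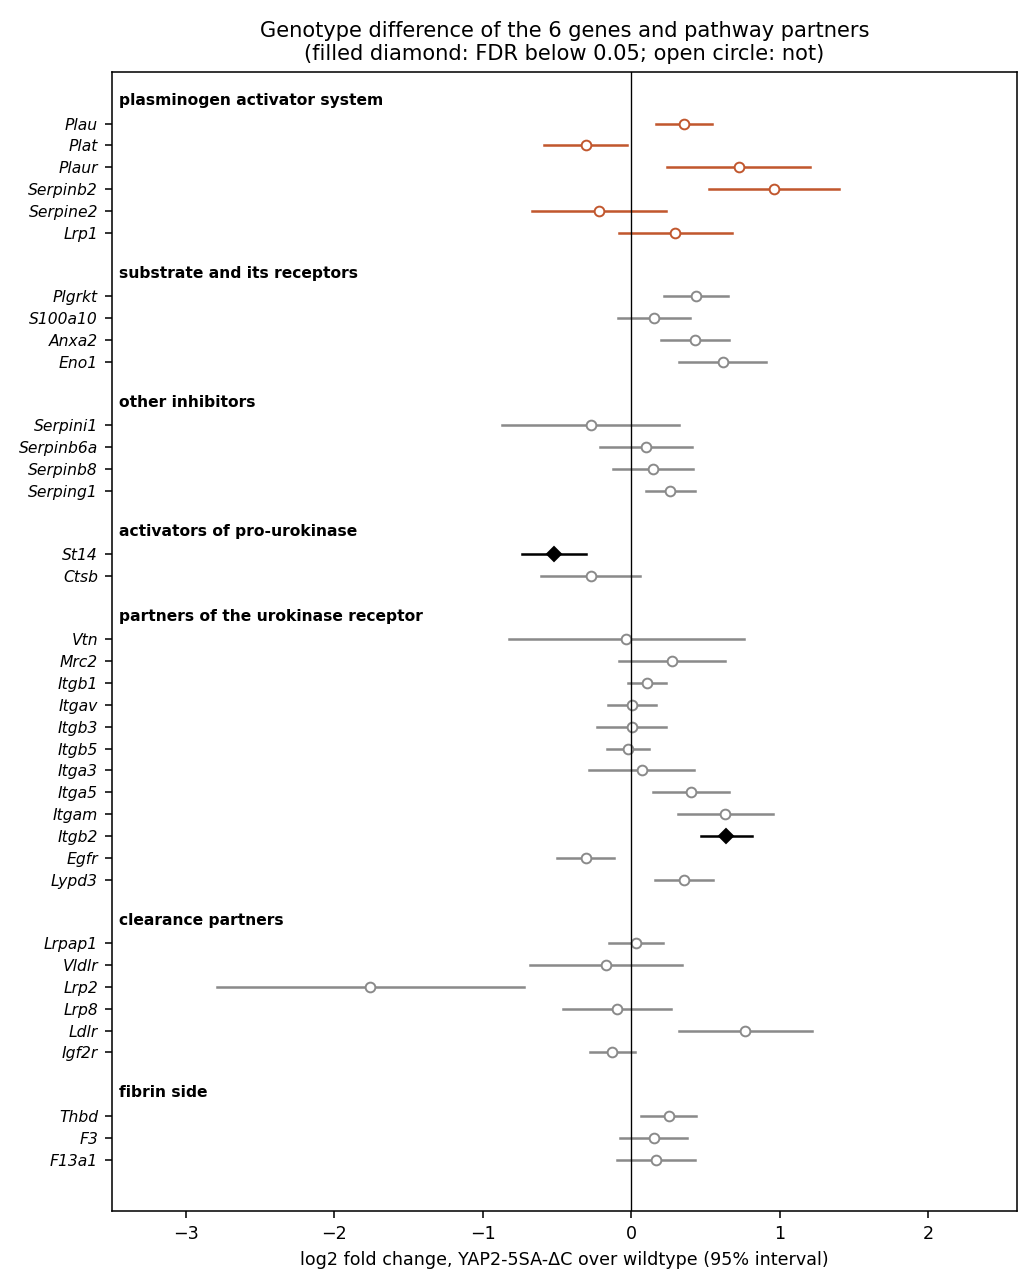
Log2 fold change between YAP2-5SA-∆C and wildtype skin with its 95% interval, for the 6 genes (orange) and the 31 tested partners by role. *St14* and *Itgb2* (filled diamonds) are the only ones past an FDR of 0.05 under edgeR's quasi-likelihood model.

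Of the substrate and its surface receptors, 4 of 5 genes were tested, all with a positive log2 fold change, as 47.6% of all tested genes had, and 0 passed the edgeR quasi-likelihood threshold. At an unadjusted p under 0.05, 3 were higher, against 13.3% of all genes. The most abundant was *Anxa2*, a plasminogen-binding annexin, at 473 ± 21.7 CPM in wildtype and 637 ± 76.4 CPM in transgenic skin (SD, n = 3 each; edgeR quasi-likelihood FDR 0.0621). *Anxa2* passed without transgenic replicate 2 (FDR 0.0488), with edgeR's likelihood-ratio test (FDR 0.0399) and with DESeq2 (FDR 0.00104). *Plg*, the substrate itself, had 19 counts over all 6 libraries and was not tested. It is made mainly in the liver. Fibrinogen genes were likewise almost undetected in skin, with 11 counts for *Fga*, 4 for *Fgb* and 2 for *Fgg*.

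Among the other inhibitors, 4 of 7 were tested and 0 passed in the same edgeR test, where 1 was higher at an unadjusted p under 0.05. Over all genes, 1.91% passed and 13.3% were higher and 13% lower at that p, which is the background for each of these groups. The most abundant was *Serping1*, the C1 inhibitor, at 132 ± 3.42 and 159 ± 12.3 CPM (FDR 0.0769). Of 14 alternatives, it passed with DESeq2 alone (FDR 0.0264). Its FDR was 0.276 with edgeR's likelihood-ratio test and 0.0774 with voom. Among the transgenic libraries, the highest was replicate 2 for *Serpinb2* and replicate 3 for *Plau* and *Plaur*.

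Of the other proteases that can activate pro-urokinase, *Ctsb*, the lysosomal cathepsin B, was the most abundant, at 781 ± 105 and 646 ± 94.6 CPM (FDR 0.265, edgeR quasi-likelihood). Its log2 fold change was -0.27, with -0.14 without transgenic replicate 2 and -0.37 without wildtype replicate 1. Among 12 tested partners of the urokinase receptor, the epidermal growth factor receptor *Egfr* had the highest counts, at 368 ± 2.47 CPM in wildtype and 297 ± 29.8 CPM in transgenic skin (SD, n = 3 each). The genotypes did not overlap for *Egfr*, which had a log2 fold change of -0.31 (edgeR quasi-likelihood FDR 0.0786). Of 14 alternatives, *Egfr* passed with DESeq2 alone (FDR 0.0214), and edgeR's likelihood-ratio FDR was 0.184. The 6 clearance partners gave 0 calls (1 higher and 1 lower at an unadjusted p under 0.05), and the most abundant, *Igf2r*, was at 136 ± 4.69 and 125 ± 7.48 CPM, a log2 fold change of -0.13, and of -0.07 without transgenic replicate 2. On the fibrin side 3 of 7 genes were tested with 0 calls (1 at an unadjusted p under 0.05), and *F13a1*, a macrophage-rich transglutaminase subunit that crosslinks fibrin, was at 143 ± 20.6 and 160 ± 10.4 CPM. Its log2 fold change was 0.17, with 0.06 without wildtype replicate 1 and 0.26 without wildtype replicate 2.

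As a description, the genes of at least 10 CPM whose log2 CPM followed each gene most closely over the 6 libraries were listed. For *Plau* these were *Nampt*, *Capg* and *Pla2g4e* (Pearson's r of 0.988, 0.987 and 0.986). They were *Pigq*, *Pdxk* and *Cyld* for *Plaur* (r of 0.993, 0.993 and 0.992), and *Nek7*, *Gpt2* and *Sod3* for *Serpinb2* (r of 0.998, 0.995 and 0.994). Each list is the top of 10067 or 10068 genes compared over 6 libraries that share the genotype split. Of these 9 genes, *Pla2g4e* alone passed the edgeR quasi-likelihood threshold (FDR 0.0398).

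**Figure D4:**
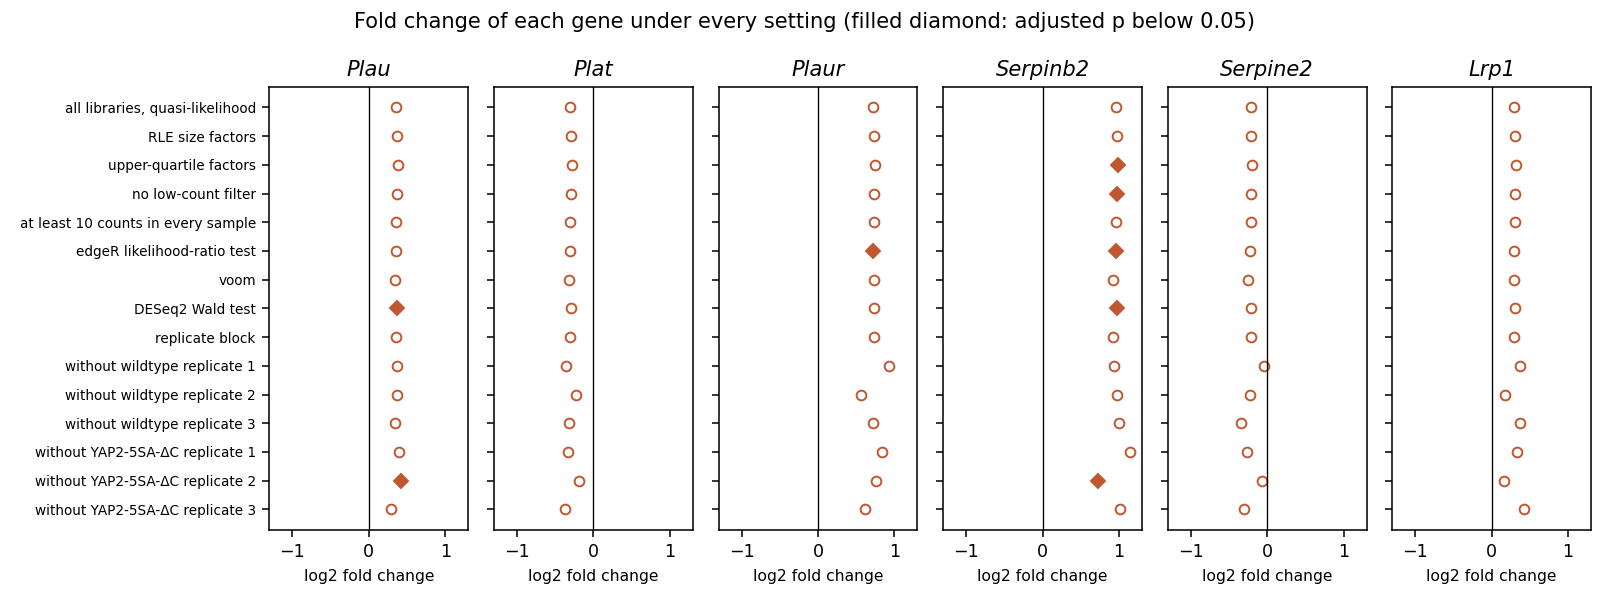
Log2 fold change of each of the 6 genes with all libraries and under each other setting; a filled diamond marks an adjusted p below 0.05. The direction of each gene is the same in every setting shown, while *Plau*, *Plaur* and *Serpinb2* cross the threshold in some, and *Plat*, *Serpine2* and *Lrp1* in none.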

How the data were processed

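Skin RNA of 3 wildtype and 3 YAP2-5SA-∆C mice was analysed from the raw counts per Ensembl gene that the authors deposited. According to the methods and the submitters' processing notes, paired-end reads were mapped to GRCm38 with Tophat2 and Bowtie2 (2.1.0) and uniquely mapped reads were counted per gene with HTSeq-count. The annotation release and strand setting are not given in the sources used here. The methods speak of mRNA libraries and the labels of a kit for total RNA.

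A gene was kept if 3 or more libraries reached 1 CPM (15102 genes), and libraries were scaled with TMM. Genotype was the only term of the main model, a quasi-likelihood fit in edgeR 4.0.16 (R 4.3.3), and p-values were adjusted by Benjamini-Hochberg over all tested genes (FDR). The methods name the likelihood-ratio test and voom, which were run as alternatives (limma 3.58.1), beside DESeq2 1.42.0. CPM values are TMM-scaled, errors are SDs of 3 mice, and intervals of fold changes are 95% quasi-likelihood intervals. Ratios within a library were tested with a two-sided exact permutation test. The fits were checked on simulated counts. Replicates are separate mice, and p-values set the genotype difference against the spread between them. As alternatives, the scaling (RLE, upper-quartile), the low-count filter and the test were changed, replicate number was added as a block, and single libraries were dropped.

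The genes and lists were chosen with earlier results of these data known. Named were all 6 genes, of the partner list each gene past the threshold and the most abundant tested gene per role, and the 3 genes most like *Plau*, *Plaur* and *Serpinb2*. Promoter motifs, *Itgam*, *Plg* and the fibrinogen genes were chosen after the data were seen. A gene of the partner list is not reported here, and it was left out of the list's counts. Positions and exon lengths came from GENCODE M21, which lacks 558 identifiers of the table. Symbols without a match in the table (*Serpina5*, *Klkb1*, *Cpb2*, *Flg*, *Ly6g*) were not analysed here.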

Additional observations from a re-analysis of the deposited data

How the results depend on the processing

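The 6 genes kept the direction of their log2 fold change in all 14 alternatives each. None of *Plat*, *Serpine2* and *Lrp1* passed the threshold in any of them. *Plau* passed with DESeq2 (log2 fold change 0.36) and *Plaur* with the likelihood-ratio test (0.72). *Serpinb2* passed with upper-quartile factors (0.98), without a low-count filter (0.97), with the likelihood-ratio test (0.96) and with DESeq2 (0.97). Dropping single libraries gave log2 fold changes between 0.29 and 0.42 for *Plau*, 0.56 and 0.93 for *Plaur*, and 0.73 and 1.14 for *Serpinb2*. The number of the 6 genes called was 0 in edgeR's quasi-likelihood test, where 4 had an unadjusted p under 0.05. It was 1 with upper-quartile factors, 1 without a low-count filter, 2 with the likelihood-ratio test, 2 with DESeq2 and 0 to 2 when a library was left out. The 2 were *Plau* and *Serpinb2* without YAP2-5SA-∆C replicate 2.

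Over all genes, 288 were called in the quasi-likelihood test, 416 with upper-quartile factors, 497 without a low-count filter, 1568 with the likelihood-ratio test and 1590 with DESeq2. Leaving out 1 library gave 0 to 817 calls. The lowest, 0, was reached without wildtype replicate 2, wildtype replicate 3 or YAP2-5SA-∆C replicate 3, and 2726, 2844 and 3691 genes then reached an unadjusted p under 0.05. The highest came without YAP2-5SA-∆C replicate 2. The cause was not tested. With the replicate number as a block, 0 genes were called and 2949 had an unadjusted p under 0.05. Same-numbered libraries correlated at -0.33, -0.23 and -0.05 in their deviations from the group means. Differently numbered libraries correlated at -0.07 to 0.27. With 3 libraries per group, these values cannot settle whether the numbers pair the mice. The ratio of *Lrp1* to *Plau*, which had a log2 difference of -0.06, reversed to 0.03 without wildtype replicate 3 and 0.13 without YAP2-5SA-∆C replicate 3, within a range of -0.25 to 0.13 over single libraries dropped. Higher and lower calls split 218 to 70 in the main test, 339 to 77 with upper-quartile factors, 123 to 19 without wildtype replicate 1, 408 to 409 without YAP2-5SA-∆C replicate 2, 833 to 735 with the likelihood-ratio test and 959 to 631 with DESeq2. Upper-quartile scaling moved the median log2 fold change of all genes from -0.01 to 0.01. Depth limits *Plaur* most.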
